A study of Mus musculus with 2 samples.

Results

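The MEF2 transcription factors and the class IIa histone deacetylases were followed as a set of 8 genes, chosen by symbol from 55536 named genes and all found: Mef2a, Mef2b, Mef2c and Mef2d, and Hdac4, Hdac5, Hdac7 and Hdac9. Total RNA was sequenced from gastrocnemius, the large calf muscle, of female mice at 10 days of age. The animals were B6CASTF1/J, an F1 hybrid strain, and the labels name no further allele, agent or treatment. The series has 1 group of 2 libraries, called biological replicates 1 and 2, each made from 300 ng of RNA with added ERCC spike-ins and reduced ribosomal RNA. The labels give separate biosamples but do not say that each came from 1 animal, so the SD measures only the spread between these libraries. With a single group no condition could be compared; an exact sign-flip test on 2 libraries could not go below p = 0.5, and none was run.

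MEF2 proteins bind DNA through a MADS box and a MEF2 domain at their amino end and activate muscle genes together with myogenic factors. Class IIa deacetylases bind MEF2 and repress its targets; kinases of the CaMK, protein kinase D and SIK families phosphorylate them, 14-3-3 proteins hold the phosphorylated forms, and the repressors then leave the nucleus. Their own deacetylase domain is weak, and they act largely through partners such as HDAC3.

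The libraries held 35925076 and 39969378 expected counts in replicates 1 and 2. All 8 skeletal muscle markers were detected, which here means a TPM (a transcript level per length) of at least 1 in both libraries. Markers of cartilage and bone summed to 214 TPM in replicate 1 and 15.1 TPM in replicate 2. Bglap, Ibsp and Col10a1 of this list had no counts in replicate 2. The cartilage genes Col2a1, Acan and Sox9 differed less, at 14.7 and 11.5, 2.24 and 1.54, and 1.19 and 0.88 TPM. Markers of B lymphocytes summed to 3.19 and 0.84 TPM and those of T lymphocytes to 1.52 and 0.97. Those of neurons summed to 4.71 and 1.74 and those of macrophages to 86.1 and 64.2. The 5 fibroblast markers summed to 5478 and 3443 TPM, of which Col1a1, a collagen gene of bone too, made up 3542 and 1887. The sum for smooth muscle and pericytes was higher in replicate 2, at 383 and 457 TPM, of which Acta2 made up 229 and 314. Rgs5, Pdgfrb and Myh11 of this list were lower in replicate 2 on the TPM scale, and Tagln and Cnn1 slightly higher. Endothelial markers, all 10 detected, summed to 257 and 229 TPM. The part of these other cells in the levels below was not tested, and in whole muscle fewer cells of a type and less RNA per cell cannot be told apart.

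Mef2c was the most abundant member and Mef2b the least. Detection reached 7 of the 8 members, beside 52.3% of 22015 nuclear protein coding genes. Mef2c (chr13:83504034-83667080, mm10, plus strand), a factor required for heart and muscle development, stood at 210.5 and 211 TPM in replicates 1 and 2, or 211 ± 0.53 (SD, n = 2). It ranked 256th and 269th among nuclear protein coding genes, and the libraries lay within each other's deposited TPM intervals. Mef2d (chr3:88142372-88172086, plus strand), expressed from myoblasts onward, stood at 72.2 and 64.1 TPM, or 68.1 ± 5.66 (SD, n = 2). Mef2a (chr7:67231163-67372858, minus strand), a factor of postnatal heart and muscle, stood at 46.1 and 38.9 TPM, or 42.5 ± 5.13 (SD, n = 2). For both genes replicate 1 was the higher library on the TPM scale, and the TPM intervals of the libraries did not overlap.

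Mef2b (chr8:70139711-70167488, plus strand), best known from germinal centre B cells, was below detection. It had 7 counts in replicate 1 and 8 in replicate 2, with exact Poisson intervals of 2.81 to 14.4 and 3.45 to 15.8 counts that cover counting error only. Its level was 0.20 and 0.21 TPM, so a difference between the libraries was not detectable at this depth. Its annotated span overlaps Borcs8 on the same strand, which had 194 and 165 counts.

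Mef2c held 64.0% and 67.2% of the summed TPM of the 4 Mef2 genes, a mean of 65.6% ± 2.26 (SD, n = 2). Mef2d held 21.2% ± 1.09, Mef2a 13.2% ± 1.18 and Mef2b 0.064% ± 0.0042 (SD, n = 2). In log2 ratios taken within each library, Mef2c exceeded Mef2d by 1.63 ± 0.12 and Mef2d exceeded Mef2a by 0.68 ± 0.05 (SD, n = 2). Each step of this order was in the same direction in both libraries and larger than its SD.

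**Figure D1:**
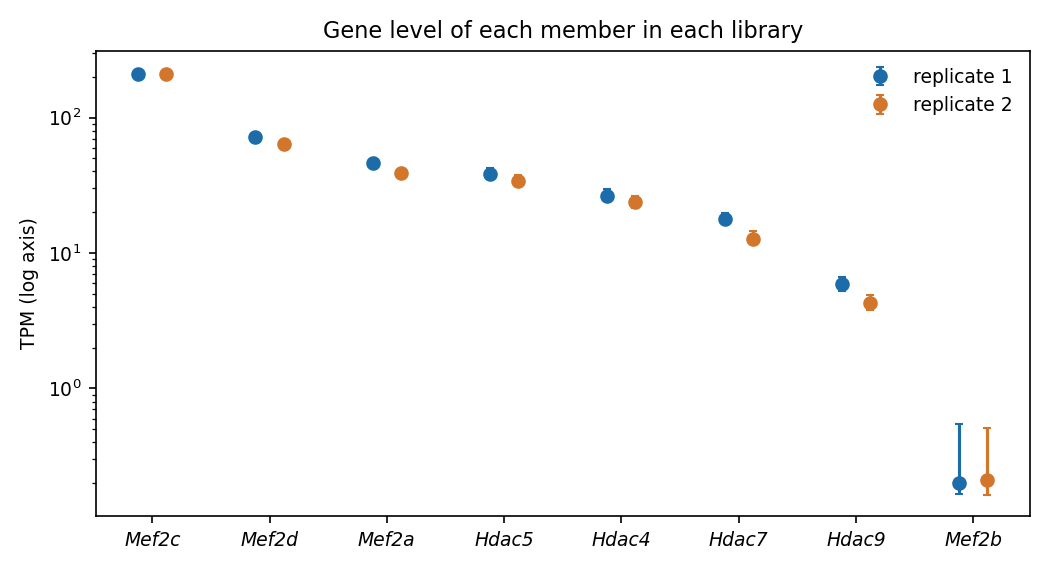
Gene level of the 8 members in TPM on a log axis, 1 point for each library; bars are the deposited intervals of each estimate. Mef2c sits at 210.5 and 211 TPM at the top and Mef2b at 0.20 and 0.21 TPM at the bottom, with the class IIa genes between them.

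Among the repressors, Hdac5 (chr11:102194432-102230166, minus strand), a signal-responsive deacetylase of heart and muscle, stood at 38.5 and 34.0 TPM, or 36.2 ± 3.19 (SD, n = 2). Hdac4 (chr1:91928779-92195699, minus strand), which also controls the growth of cartilage and responds to denervation in muscle, stood at 26.6 and 23.8 TPM, or 25.2 ± 1.99 (SD, n = 2). Hdac7 (chr15:97792664-97844502, minus strand), needed for the integrity of blood vessels, stood at 17.8 and 12.8 TPM, or 15.3 ± 3.58 (SD, n = 2). Hdac9 (chr12:34047580-34917095, minus strand), itself a MEF2 target gene in muscle, stood at 5.89 and 4.27 TPM, or 5.08 ± 1.15 (SD, n = 2). All 4 were higher in replicate 1 on the TPM scale, and the intervals of the libraries overlapped for Hdac4 and Hdac5 but not for Hdac7 and Hdac9. The end of Hdac7, at chr15:97792664, overlaps Slc48a1 on the opposite strand only in its last bases. Slc48a1 ends at chr15:97792692 and had 837 and 969 counts. Mef2a overlaps a longer stretch of Lysmd4 (chr7:67222544-67307330) on the opposite strand, which had 451 and 484 counts. Those were 8.86% and 9.68% of the Mef2a counts in replicates 1 and 2. Whether the counting used strand is not given in the sources used here.

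The order of Hdac5 and Hdac4 differed between measures. In TPM over all models of the RSEM-format tables Hdac5 exceeded Hdac4 by a log2 ratio of 0.53 in replicate 1 and 0.51 in replicate 2. In the kallisto-format tables, also over all models, Hdac4 was ahead in both libraries, at 44.1 and 33.1 TPM against 41.1 and 30.8 TPM for Hdac5, a log2 ratio of Hdac5 over Hdac4 of -0.10. Over coding models of the RSEM-format tables alone, a choice made after seeing the data, Hdac4 stood at 17.6 and 15.5 TPM. Hdac5 stood there at 12.8 and 12.6 TPM, a log2 ratio of -0.38. These models include incomplete ones, which lack an end of the coding region. Incomplete models held 30.6% and 27.4% of Hdac4 TPM but 1.92% and 2.39% of Hdac5 TPM. Over complete coding models alone, also a later choice, Hdac5 was ahead in both libraries. Hdac5-204 by itself had 9.92 and 10.2 TPM, above Hdac4-202 (7.20 and 6.35) and Hdac4-201 (2.28 and 2.64) together. By expected counts over all models, which are not divided by length, the log2 ratio was -0.17 and -0.06. The other 6 neighbouring pairs of the 8 members kept their order in the kallisto-format tables, over coding models and by expected counts.

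**Figure D2:**
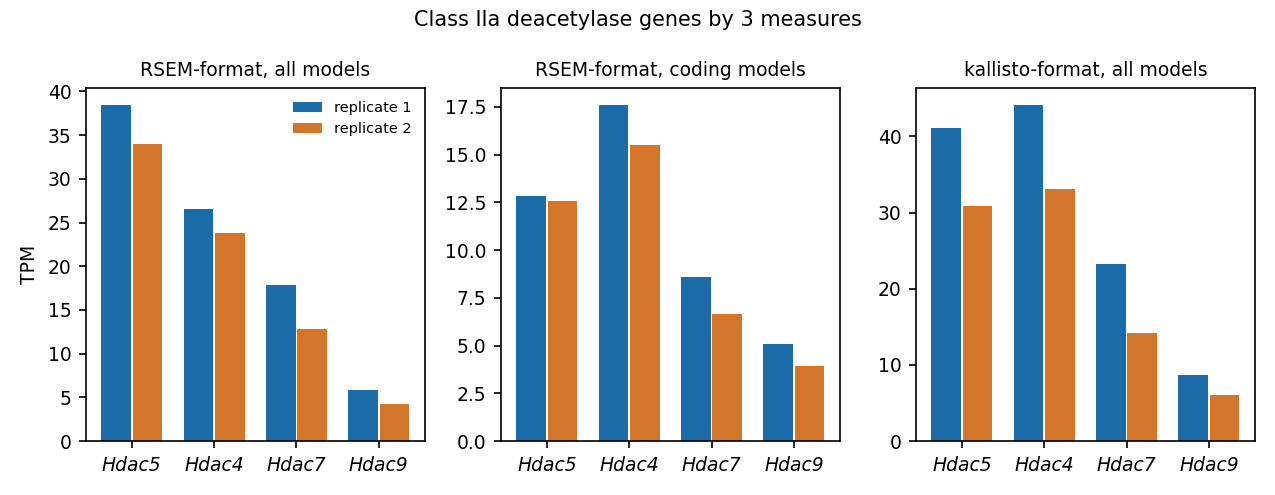
Levels of the 4 class IIa genes in TPM by 3 measures, each on its own axis from 0, with 1 bar for each library. Hdac5 is the tallest pair of bars over all RSEM-format models. Hdac4 is the tallest over coding models, incomplete ones included (17.6 and 15.5 TPM), and in the kallisto-format tables (44.1 and 33.1 TPM).

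Much of the Hdac5 signal lay in models with a retained intron, an annotated transcript that keeps an intron and is not translated. These models took 52.4% and 44.6% of Hdac5 TPM in the RSEM-format tables and 33.5% and 18.8% in the kallisto-format tables. In the RSEM-format tables Hdac5-217, 650 nt long, held 19.7% and 18.3%, and Hdac5-211, 754 nt long, held 16.1% and 20.04%. In the kallisto-format tables Hdac5-217 held 5.21% and 0%, and Hdac5-211 held 0.99% and 2.30%. There most of the retained-intron share lay on other models, so the tables differed on which of these models carried it. The main coding form, Hdac5-204, held 25.8% and 29.95% in the RSEM-format tables, and the nonsense-mediated decay model Hdac5-205 held 9.66% and 11.2%. By expected counts, which are not divided by length, all retained-intron models together held 21.1% and 15.5% of Hdac5.

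For Hdac7 the retained-intron share depended on the kind of table, at 32.9% and 29.5% of its TPM in the RSEM-format tables and 17.9% and 12.2% in the kallisto-format tables. The retained-intron model Hdac7-211 held 22.1% and 25.3% in the first and 5.99% and 5.90% in the second. A nonsense-mediated decay model, Hdac7-212, held 18.9% and 18.5% in the first and 14.6% and 6.66% in the second. All complete coding models together held 42.8% and 51.7% in the first and 59.9% and 81.1% in the second. Its largest complete coding form, Hdac7-202, held 18.3% and 20.2%, against 34.4% and 36.5% in the kallisto-format tables. The retained-intron share of Hdac4 was 7.19% and 4.84% in the RSEM-format tables but 16.7% and 15.4% in the kallisto-format tables, where it was close to that of Hdac7 and the higher of the pair in replicate 2. In the RSEM-format tables the share was 13.0% and 6.25% for Mef2a, 4.64% and 1.91% for Mef2c, 2.84% and 1.96% for Mef2d, and 13.3% and 8.20% for Hdac9. In the kallisto-format tables it was 9.74% and 4.64%, 4.56% and 1.91%, 3.95% and 2.10%, and 12.2% and 7.44% for these 4 genes. In all 7 members with such a share it was higher in replicate 1 in both kinds of table. In the RSEM-format tables this held for 79.0% of 6923 detected protein coding genes with such a model. The direction is thus that of most genes. The median share of those 6923 genes was 9.86% and 5.52% in the RSEM-format tables and 10.3% and 6.15% in the kallisto-format tables.

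**Figure D3:**
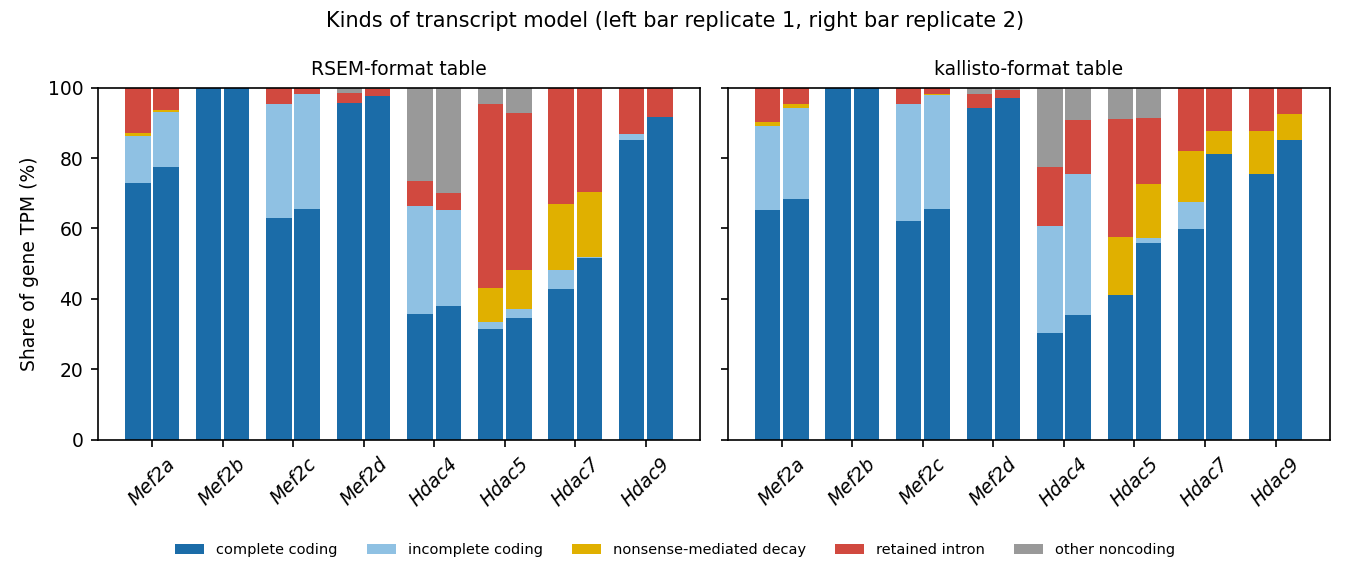
Share of each gene's TPM, in percent, held by 5 kinds of transcript model, with replicate 1 as the left bar and replicate 2 as the right bar of each pair. Retained-intron models take 52.4% and 44.6% of Hdac5 in the RSEM-format table, and complete coding models take 95.8% and 97.6% of Mef2d.

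The 4 Mef2 genes begin with coding exons of 54 and 204 nt that encode the DNA-binding region, and these were 74.8% to 83.7% identical in bases between any 2 of the genes. The next coding exon is a choice between a pair of exons in Mef2a, Mef2c and Mef2d, called α1 and α2 here in the order of transcription; the α2 exon is known as the muscle form. The α1 exons were 55.1% to 66.0% identical between the genes, the α2 exons of Mef2c and Mef2d 65.9%, and α1 against α2 within Mef2c and within Mef2d 63.9% and 54.2%. Mef2b has a single exon of 135 nt there, 48.6% to 56.2% identical to the α1 exons and 43.1% to 49.7% identical to the α2 exons of Mef2c and Mef2d. The exons are shown because the forms below differ by them; they are the mm10 reference from GENCODE M21, read 5′ to 3′ along the gene, and capitals mark bases shared by all exons shown of that kind once each is aligned to that of Mef2c. The hybrid animals also carry CAST alleles, which were not told apart here.
Mef2a α1: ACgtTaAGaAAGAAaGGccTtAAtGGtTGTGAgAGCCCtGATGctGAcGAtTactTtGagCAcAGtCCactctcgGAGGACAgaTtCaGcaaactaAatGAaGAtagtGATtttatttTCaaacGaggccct
Mef2c α1: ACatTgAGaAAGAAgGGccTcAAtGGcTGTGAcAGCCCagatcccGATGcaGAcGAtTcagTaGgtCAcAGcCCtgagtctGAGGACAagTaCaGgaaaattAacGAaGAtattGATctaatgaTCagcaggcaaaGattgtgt
Mef2d α1: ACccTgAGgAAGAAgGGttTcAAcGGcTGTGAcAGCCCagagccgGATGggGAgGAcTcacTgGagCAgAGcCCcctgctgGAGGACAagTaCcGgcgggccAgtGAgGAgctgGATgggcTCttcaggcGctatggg
Mef2c α2: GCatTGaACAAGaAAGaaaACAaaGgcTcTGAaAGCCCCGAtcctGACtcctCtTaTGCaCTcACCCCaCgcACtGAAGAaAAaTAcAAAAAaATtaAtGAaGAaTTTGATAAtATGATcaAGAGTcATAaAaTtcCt
Mef2d α2: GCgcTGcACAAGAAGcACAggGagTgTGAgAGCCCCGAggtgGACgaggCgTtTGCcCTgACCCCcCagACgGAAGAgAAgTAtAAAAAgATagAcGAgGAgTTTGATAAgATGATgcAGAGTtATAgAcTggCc
The α1 exons lie at chr7:67268269-67268400, chr13:83625265-83625408 and chr3:88158034-88158171, and the α2 exons shown at chr13:83625470-83625607 and chr3:88158221-88158355. Shared bases numbered 65 among the 3 α1 exons and 91 between the 2 α2 exons.

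Mef2c was carried mainly by α2 and the other genes mainly by α1. Over coding models that reach this exon, α2 held 60.7% and 64.3% of Mef2c TPM, or 62.5% ± 2.51 (SD, n = 2). It held 21.04% and 19.7% of Mef2a, or 20.3% ± 0.97, and 22.8% and 22.4% of Mef2d, or 22.6% ± 0.27 (SD, n = 2). The Mef2c range did not overlap those of the other genes, which lay close together. The kallisto-format tables gave 62.4% for Mef2c, 22.04% for Mef2a and 23.7% for Mef2d.

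The α1 part of Mef2c rested on incomplete models. Over complete coding models alone α2 held 82.3% and 85.4% of Mef2c, and α1 held 10.1% and 8.25%, against 33.9% and 31.1% with incomplete models. Mef2c-231, an incomplete α1 model of 702 nt, held 21.4% and 20.9% of the gene in the RSEM-format tables and 9.77% and 16.3% in the kallisto-format tables. Mef2c-205, another incomplete α1 model, of 873 nt, held 1.65% and 1.32% in the first and 19.6% and 12.3% in the second. The tables thus placed the α1 signal on different models while their α1 totals were 32.5% and 34.5%.

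The leading Mef2c form was Mef2c-201, with α2 and a coding length of 1392 nt, at 35.5% and 37.9% of the gene. It was followed by Mef2c-218, with α2 and 1296 coding nt, at 16.3% and 18.0%, or 24.4% and 25.1% in the kallisto-format tables. These differ in the γ segment, a stretch at the start of the last coding exon known to repress activity. Complete models with γ held 71.1% and 68.2% of complete Mef2c TPM, and 59.1% and 60.7% in the kallisto-format tables. Mef2c-201 is 6217 nt long and Mef2c-218 2589 nt, so these models differ in their untranslated ends too. The γ segment (chr13:83662307-83662402, 96 nt) is in capitals, with 30 coding bases on each side.
Mef2c γ: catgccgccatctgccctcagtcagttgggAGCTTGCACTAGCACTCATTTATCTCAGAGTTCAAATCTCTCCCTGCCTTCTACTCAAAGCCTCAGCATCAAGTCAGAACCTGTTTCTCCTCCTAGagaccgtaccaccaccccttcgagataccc

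**Figure D4:**
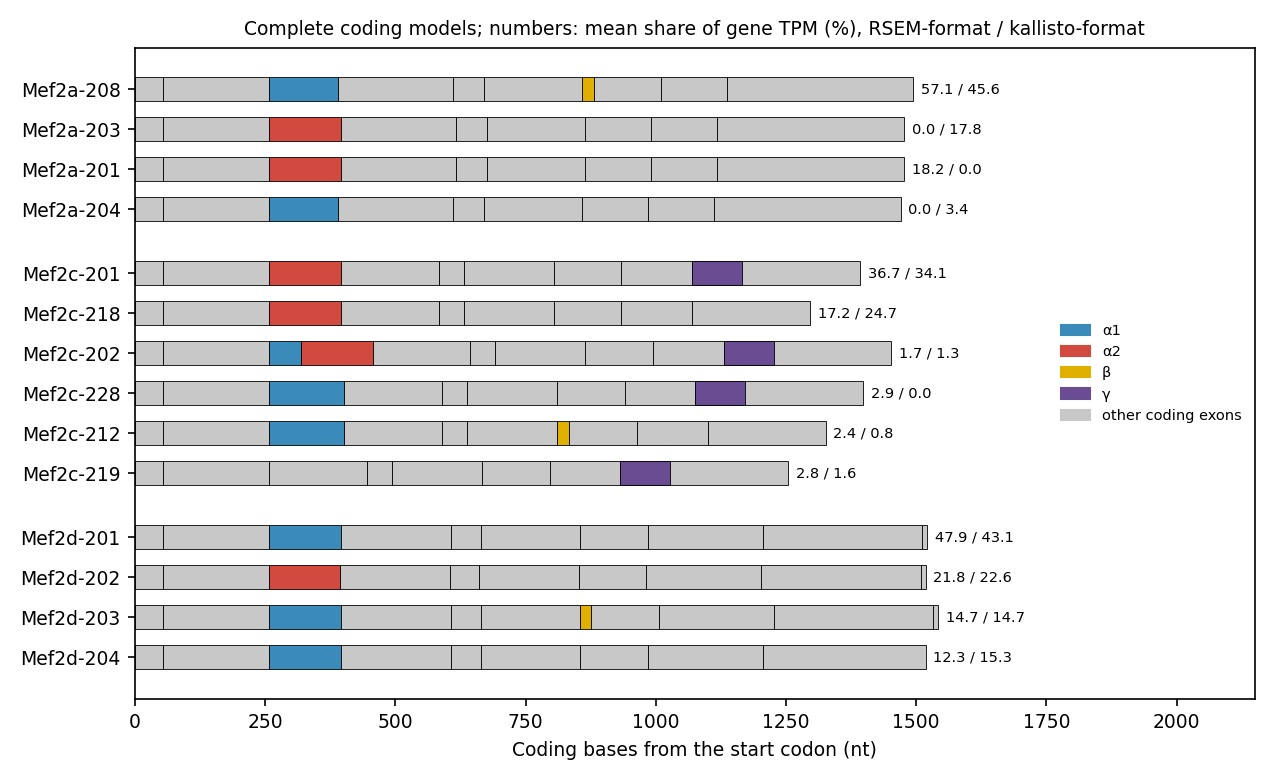
Coding exons of complete Mef2a, Mef2c and Mef2d models that reach 2% of their gene in either table and library, drawn to scale in coding nucleotides; the numbers at the right are mean shares of gene TPM in percent. The α2 exon sits in Mef2c-201 (36.7 and 34.1), and the α1 exon in Mef2a-208 (57.1 and 45.6) and Mef2d-201 (47.9 and 43.1).

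In Mef2d the leading form was Mef2d-201, with α1, at 47.9% and 47.8% of the gene. The α2 form Mef2d-202 held 21.8% in both libraries, Mef2d-203 with α1 and the β exon 14.1% and 15.3%, and Mef2d-204 with another end 11.97% and 12.7%. The kallisto-format tables gave 43.1%, 22.6%, 14.7% and 15.3% for these 4 forms. No annotated Mef2d model holds α2 and β together, so a form with both could not be counted. By expected counts the α2 share was 10.2%, since Mef2d-202 is 1767 nt long and Mef2d-201 is 5401 nt. No annotated Mef2d model with α2 or β is longer than 1791 nt, so such a form with longer untranslated ends could not be counted.

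In Mef2a the tables gave like shares to exons and unlike shares to transcripts. Mef2a-208, with α1 and β, led at 54.9% and 59.2%, or 45.6% and 45.7% in the kallisto-format tables. Mef2a-201 held 18.2% and 18.3% in the RSEM-format tables, where Mef2a-203 was listed at 0. In the kallisto-format tables Mef2a-203 held 19.1% and 16.4%, and Mef2a-201 was at or near 0. Both have α2, lack β and share a coding length of 1476 nt. They are 2476 and 2664 nt long and Mef2a-208 is 5538 nt long, so they differ from it in their untranslated ends too. The incomplete models Mef2a-205 and Mef2a-210 held 14.4% and 0% in the first kind of table and 13.98% and 10.9% in the second. In Mef2b, Mef2b-203 held all of the few counts.

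The β exon is a small cassette exon that adds acidic residues and raises the activity of MEF2 proteins. It is shown in capitals with 30 coding bases on each side, because its use set Mef2a apart.
Mef2a β: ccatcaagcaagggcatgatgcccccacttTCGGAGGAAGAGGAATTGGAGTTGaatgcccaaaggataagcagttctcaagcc
Mef2c β: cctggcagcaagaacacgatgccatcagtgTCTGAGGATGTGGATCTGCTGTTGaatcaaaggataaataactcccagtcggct
Mef2d β: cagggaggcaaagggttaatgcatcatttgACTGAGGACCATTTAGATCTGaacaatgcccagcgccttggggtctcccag
It is 24 nt long in Mef2a (chr7:67244521-67244544) and Mef2c (chr13:83654598-83654621) and 21 nt in Mef2d (chr3:88161781-88161801). Models with β held 75.2% and 76.4% of Mef2a TPM over models that span the exon, 14.7% and 15.6% of Mef2d and 4.01% and 4.86% of Mef2c. The 3 ranges did not overlap, and the kallisto-format means were 72.8%, 15.3% and 3.20%. By expected counts the share of Mef2d was 6.71% and 7.20%, closer to 4.76% and 6.18% for Mef2c, and that of Mef2a 87.4% and 88.1%. Thus the most abundant Mef2 gene mostly had α2 and skipped β, and Mef2a mostly had α1 and β. No complete Mef2a model holds α2 and β together, so a form with both could not be counted. Over complete models in the RSEM-format tables the α1 and β shares of Mef2a were both 75.2% and 76.4%. The choices of α and β in Mef2a were therefore not measured apart.

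**Figure D5:**
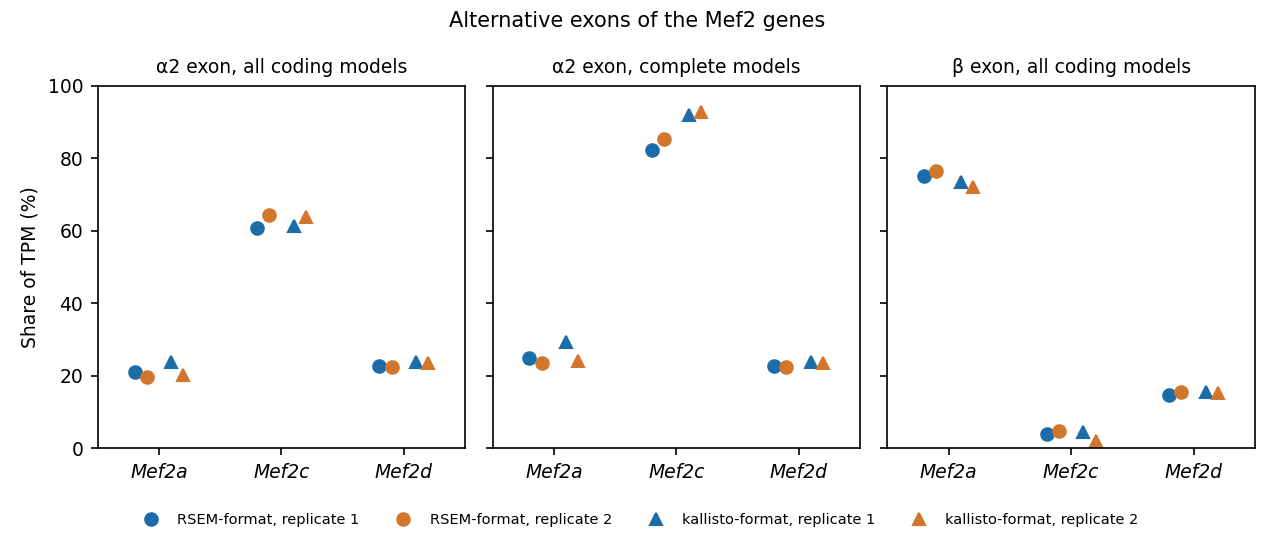
Share of TPM in percent held by models with the α2 exon (all coding models, then complete models) and with the β exon, for each gene, library and kind of table. Mef2c lies apart in α2 (60.7% and 64.3% over all coding models) and Mef2a in β (75.2% and 76.4%).

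Most Hdac9 abundance lay in forms that end before the deacetylase domain, known as MITR. Over complete coding models these short forms held 86.8% and 86.7% of TPM, and 93.2% and 90.3% in the kallisto-format tables. These shares leave out Hdac9-210, a nonsense-mediated decay model with 2925 coding nt. It was listed at 0 in the RSEM-format tables and held 12.2% and 7.49% of the gene in the kallisto-format tables. Hdac9-201, with 1764 coding nt, held 44.9% and 57.1% of the gene, and Hdac9-208 held 28.99% and 19.4%. Forms with the deacetylase domain held 13.2% and 13.3% of complete models, and the largest of them by mean, Hdac9-205, 5.23% and 4.97% of the gene. The short forms read on past the end of an exon of the long forms. The last 30 shared bases and, in capitals, the 48 bases that only the short forms use as coding sequence (chr12:34373830-34373877) are shown.
Hdac9 short form end: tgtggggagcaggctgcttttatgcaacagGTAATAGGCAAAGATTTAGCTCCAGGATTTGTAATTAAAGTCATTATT
Hdac9 had 578 and 509 counts in all, so the smaller forms rest on few reads.

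Hdac4 was divided by the length of its 3′ untranslated region. Hdac4-202, with 4571 nt of it, held 27.1% and 26.7% of the gene, and Hdac4-201, with 593 nt and the same coding length, held 8.57% and 11.1%. The long form took 75.9% and 70.6% of the 2 complete models together, and 75.3% and 70.5% in the kallisto-format tables. Short models held much of the rest, among them Hdac4-205 at 20.6% and 15.8%, Hdac4-204 at 12.5% and 17.4% and Hdac4-206 at 10.0% and 11.6%. Hdac4-204 was at 0 in the kallisto-format tables, which gave Hdac4-210 12.4% and 13.0%.

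Upstream starts supplied most Mef2c. Models that begin at chr13:83504034-83504240 held 62.1% and 63.1% of the gene, and 58.9% and 61.3% in the kallisto-format tables. A group of starts at chr13:83523473-83524920 held 26.5% and 23.2%, mostly Mef2c-231. The share of another group, at chr13:83573607-83573625, was 4.61% and 4.64% in the RSEM-format tables and 21.7% and 13.4% in the kallisto-format tables. These are positions of annotated models, not measured starts.

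RefSeq promoter windows, from 250 bases before to 50 after a start, gave 14 windows for the 8 members. The MEF2 consensus on either strand, which reads the same way in both directions, was found in 2 of them, beside 3.19% of 32851 windows. They belong to Mef2a and Hdac5 (GRCm38.p6, consensus in capitals).
Mef2a promoter: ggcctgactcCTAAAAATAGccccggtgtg
Hdac5 promoter: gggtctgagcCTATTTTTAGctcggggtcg
The match begins 2 bases before the Mef2a start and 20 bases before the Hdac5 start. A match is a description of letters and not evidence of binding.

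Of the 7 members that averaged 100 counts or more, none differed 2-fold between the libraries, beside 1.02% of 11760 genes, and none differed 1.5-fold, beside 4.45%. On TMM-scaled counts the log2 ratio of replicate 2 over replicate 1 was 0.27 for Mef2c, 0.16 for Hdac5, 0.12 for Mef2d, 0.06 for Mef2a and 0.05 for Hdac4. It was -0.09 for Hdac9 and -0.19 for Hdac7, while the median of all genes was 0.08. The ratio of Mef2c exceeded that of 78.0% of genes, and that of Hdac7 exceeded 15.5%. Scaling by library totals or by spike-ins moved the median of all genes by -0.24 and -0.39, and with it Mef2a, Mef2d, Hdac4 and Hdac5 turned negative; by spike-ins Mef2c did too, at -0.12. None of the 8 members differed 2-fold between the kinds of table, beside 1.55% of 11514 detected genes. The largest difference was that of Hdac5, lower in the kallisto-format tables by a log2 of -0.72 ± 0.14 (SD, n = 2).

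The kinases that phosphorylate class IIa deacetylases were led by Camk2a at 132 ± 5.43 TPM, Camk2b at 86.2 ± 2.65 and Camk2g at 56.5 ± 4.47 (SD, n = 2). Of 16 such kinases 14 were detected, with a median of 15.9 TPM over the list. Of all 22015 nuclear protein coding genes 52.3% were detected, the share to set beside this list and those below. The median was 1.67 TPM over all nuclear protein coding genes and 9.345 TPM over the 11514 detected ones. Camk4 and Camk1g were the listed kinases below TPM 1. Of 7 genes for 14-3-3 proteins 6 were detected, led by Ywhae at 358 ± 4.50 TPM, Ywhag at 144 ± 2.44 and Ywhaz at 66.2 ± 10.4 (SD, n = 2). Ywhae was thus more abundant than any Mef2 or class IIa gene.

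All 7 other histone deacetylase genes were detected, led by Hdac2 at 46.6 ± 0.21 TPM, Hdac3, the catalytic partner of class IIa proteins, at 21.6 ± 1.03 and Hdac1 at 11.7 ± 2.18 (SD, n = 2). Their median was 6.47 TPM, beside 20.2 TPM for the 4 class IIa genes. Of 15 cofactors and activating kinases of MEF2, 14 were detected, among them the corepressor Ncor1 at 62.5 ± 2.72 TPM and the coactivator Carm1 at 39.4 ± 3.89 (SD, n = 2). Myocd, a smooth and cardiac muscle coactivator, was below TPM 1.

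All 15 textbook MEF2 target genes were detected, beside 52.3% of nuclear protein coding genes, with a median of 100.6 TPM. They were led by creatine kinase Ckm at 11020 ± 1517 TPM, desmin (Des) at 708 ± 60.9 and the M-band gene Myom1 at 457 ± 12.1 (SD, n = 2). On TMM-scaled counts 15 of 15 were higher in replicate 2, with a median log2 ratio of 0.41, beside 62.7% of all genes. By library totals 12 of 15 were, with a median of 0.17, beside 26.1% of all genes, and by spike-ins 10 of 15, with a median of 0.02, beside 9.83%. The 8 skeletal muscle markers, which share Ckm with this list, had a median of 0.50, and the part of muscle content was not tested. None of the genes in these 5 lists differed 2-fold between the libraries.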

How the data were processed

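Both total RNA libraries of 1 group were used. The sources used here give no aligner or quantifier; the tables have the columns of RSEM and of kallisto and are named for these formats. Text files that accompany the tables name build mm10 and GENCODE M21. The deposited expected counts divide reads that match several transcripts, per the file headers. The deposited TPM is scaled by length to a fixed total that includes spike-ins, and the deposited percent (IsoPct) is a transcript's share of its gene. Members and lists were chosen with earlier results of these data known. Named genes were all members, Mef2 transcripts with at least 5% of their gene (Hdac 10%) in both libraries by either table, the 3 highest of each list, and those past 2-fold; markers are given as sums; other genes and forms named were chosen after their values were seen. An exon sequence and a gene that this rule would name are not reported here.

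Counts were rounded and TMM-scaled in edgeR 4.0.16 (R 4.3.3) with a prior count of 0.5; DESeq2 1.42.0 gave alternative size factors. Tables were compared after rescaling over nuclear protein coding genes, with a pseudocount of 0.01. Set against counts expected from library totals, replicates differed beyond sampling noise (chi-square per degree of freedom 48.6 over 16790 genes). Genes with high counts weigh most in that sum, so it does not give the spread of a typical gene. Exon groups came from GENCODE M21 models; complete models have both ends of the coding region. Depth was 35925076 and 39969378 counts. Other values were computed in Python 3.11.15 with pandas 2.3.3, scipy 1.17.1 and numpy 2.4.6.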

Additional observations from a re-analysis of the deposited data

How the results depend on the processing

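Leaving out 1 of 2 libraries always moves a mean by less than their SD, so the 70 such values say little about stability and are left out of these counts. Of the 152 other alternative values for 42 results, 81 moved by less than the spread between libraries or, for counts, stayed within 1.5 times, 68 moved further and 3 reversed. The reversals are all of the log2 ratio of Hdac5 over Hdac4. It was -0.10 in the kallisto-format tables, -0.11 by expected counts and -0.38 over coding models only, incomplete ones included. The cause was not tested. The Hdac5 share of class IIa TPM was 35.8% in the kallisto-format tables, 33.8% by expected counts and 30.8% over coding models. The Mef2c share of Mef2 was 63.2% by expected counts. The summed Mef2 level was 475 TPM in the kallisto-format tables and 700.2 TPM when rescaled over nuclear protein coding genes, and the class IIa sum was 100.7 and 178 TPM. The α2 share of Mef2a was 22.04% in the kallisto-format tables, 11.8% by expected counts and 24.2% over complete models; that of Mef2c was 83.6% by expected counts and 83.8% over complete models; and that of Mef2d was 23.7% in the kallisto-format tables and 10.2% by expected counts. The β share of Mef2d was 6.96% by expected counts. The Hdac9 short-form share was 91.7% in the kallisto-format tables and 81.2% by expected counts. At TPM 5, 4 of 7 other deacetylases were detected. Leaving out a library gave 314 to 329 TPM for Mef2, 74.8 to 88.8 TPM for class IIa, and shares of 64.0% to 67.2% for Mef2c and 43.3% to 45.4% for Hdac5. Coding-model and complete-model settings, and expected counts for ratios between members, were chosen after seeing the data. No paired analysis was possible because there is only 1 group. Counts of 7 and 8 limit Mef2b.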
